A study of Saccharomyces cerevisiae with 2 samples.

Results

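The genes described here are 37 budding yeast genes of the endoplasmic reticulum that were listed by name for their roles in moving new proteins into this compartment, glycosylating and folding them, sensing unfolded protein and degrading what fails to fold. They were found by their gene names in a table of 6592 named genes, and all 37 were present. The table gives ribosome footprints, the stretches of mRNA that ribosomes protect, from 2 cultures of the SK1 strain sampled 4 hours after transfer to sporulation medium, which starts meiosis. One culture was WT and the other, called the mutant below, carried the gim3 deletion, which removes a subunit of prefoldin, a cochaperone that passes unfolded actin and tubulin to a cytosolic chaperonin. Both cultures shared the same preparation, 24 hours in YEPD (2%) at 22 degrees C and then 16 hours in BYTA, and there was 1 library a genotype. No spread between cultures was therefore measured and no test between genotypes was possible, so every difference below is a difference between these 2 libraries. No matched mRNA was analysed here, and a footprint level does not separate the amount of mRNA from its translation.

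Proteins enter the endoplasmic reticulum through the Sec61 channel, either while they are being made or afterwards with the help of the Sec63 complex. Inside, the Hsp70 chaperone Kar2 binds the emerging chain, oligosaccharyltransferase attaches N-glycans, and protein disulfide isomerases form and shuffle disulfide bonds. When unfolded protein accumulates, the kinase and nuclease Ire1 splices the mRNA of the transcription factor Hac1, which raises transcription of many chaperone genes. Proteins that still do not fold are passed back to the cytosol, ubiquitinated by the Hrd1 or Doa10 ligase and degraded by the proteasome. In sporulating yeast the same compartment supplies the membranes and secreted proteins of the spore.

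There were 40433177 counted footprints from WT and 27864644 from the mutant. Levels are in RPM, the number of reads a gene would have if its library held 1000000. A gene was measured where its average over both libraries reached 10 RPM, which 4916 genes did. All 37 members passed that filter, with 811 (IRE1) to 333032 (PDI1) reads each over both libraries. GIM3 had 1413 reads in WT and 3 in the mutant. The libraries stood apart in meiotic stage markers. All 15 listed middle meiotic genes, which act in the divisions and spore formation, were at least 2-fold higher in the mutant, and together they took 0.261% of WT and 2.85% of mutant footprints. NDT80, which switches them on, was at 272 RPM in WT and 1429 in the mutant. The 16 early meiotic genes took 2.17% and 2.07%, and IME1, which starts the programme, was at 3290 and 2395 RPM. Leaving the middle genes out of the totals rescales every gene by nearly the same factor, and no member's log2 ratio moved by more than 0.038. That step cannot show how single genes depend on stage, and any other part of the stage difference in the values below was not tested. In whole cultures, fewer cells at a stage and fewer footprints in each cell cannot be told apart.

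The median ratio of the endoplasmic reticulum genes was close to that of all genes, and single members differed in both directions. Log2 ratios of gim3 deletion over WT, computed after adding 1 RPM to each level, ran from -0.90 for SEC61 to 0.92 for SEC72. None of the 37 reached 2-fold in either direction, where 6.35% of all 4916 genes were higher by that much and 8.5% lower. At 1.5-fold, 4 members were higher (SEC72, KAR2, HAC1 and ERO1), against 12.0% of all genes, and 7 were lower (SEC61, MPD1, DFM1, WBP1, SWP1, SEC62 and UBX2), against 22.6% of all genes. The remaining 26 lay within 1.5-fold, beside 65.5% of all genes. The median member had a log2 ratio of -0.24 and the median of all genes was -0.20. Values between -0.20 and 0 turn positive when the ratios are centred on that median gene, which applies to 7 members (PDI1, EPS1, SCJ1, ERV2, IRE1, CUE1 and UBC6). Relative to the median gene 17 members were higher and 20 lower, and at 1.5-fold the split became 4 higher (17.0% of all genes) and 2 lower (13.8% of all genes), the latter being SEC61 and MPD1. SEC72, with a centred value of 1.13, then passed 2-fold as the single higher member (8.3% of all genes), with 0 members past it on the lower side (5.21% of all genes).

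**Figure D1:**
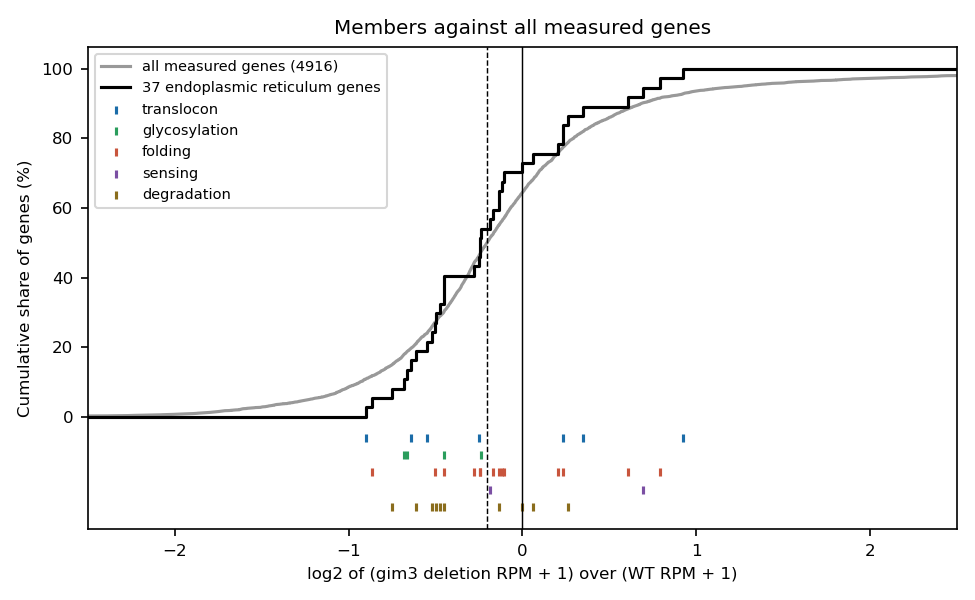
The cumulative share of genes (y axis, %) is plotted against the log2 ratio of gim3 deletion over WT with 1 RPM added (x axis, which leaves out the outermost genes) for all 4916 measured genes (grey) and for the 37 endoplasmic reticulum genes (black). Ticks under the curves mark single members by role, the solid vertical line is 0 and the dashed line is the median of all genes at -0.20. Both curves cross the middle near the dashed line, and the members end at -0.90 and 0.92.

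Together the 37 genes took 1.18% of WT footprints (Wilson 95% interval 1.17 to 1.18) and 1.21% of mutant footprints (1.21 to 1.22). PDI1 and KAR2 made up most of that sum. Without them the other 35 genes took 0.463% (0.461 to 0.465) of WT and 0.404% (0.402 to 0.407) of mutant footprints. By role, the sum over genes was 1.10 times the WT sum for folding, 0.882 times for the translocon, 0.845 times for degradation and 0.714 times for glycosylation. For the sensing pair, HAC1 and IRE1, it was 1.39 times, from a small sum of 39.1 RPM in WT. The median gene had a fold of 0.868, and the translocon sum was slightly above that, with the degradation and glycosylation sums below it. A sum follows its most abundant genes and is not the same measure as a median gene. The median translocon gene had a centred log2 ratio of -0.047, so it lay below the median gene. Folding genes other than KAR2 summed to 6560 RPM in WT and 5964 in the mutant, and KAR2 turned the sum to higher in the deposited scaling. These intervals, and those of the folds below, cover counting error only, since PCR copies cannot be told from separate molecules.

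**Figure D2:**
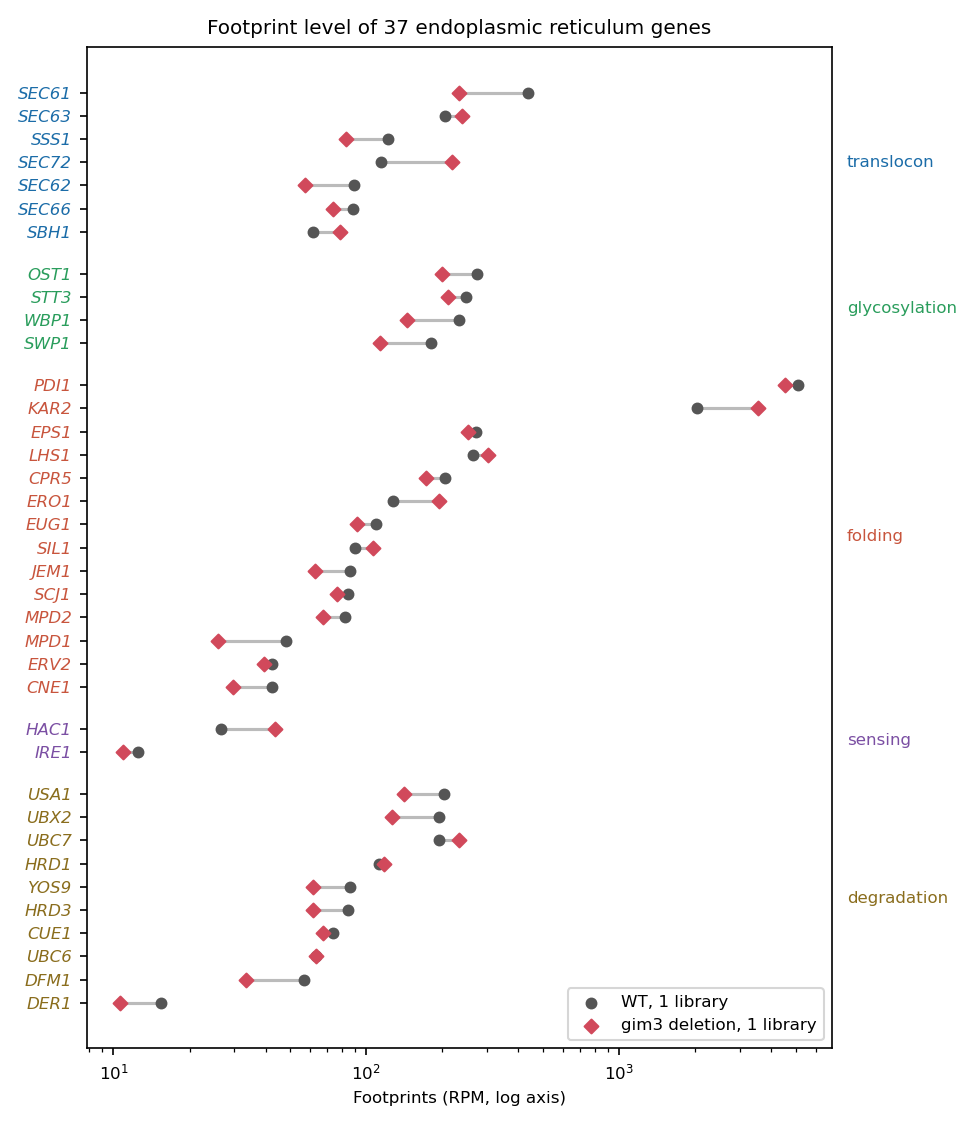
Each row is a gene, grouped by role, with its footprint level in RPM on a log axis in the WT library (grey circle) and the gim3 deletion library (red diamond), 1 library each. PDI1 and KAR2 stand far above the other 35 genes, and IRE1 and DER1 are the lowest in both libraries.

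The channel itself held the lowest ratio of all members. SEC61, which encodes the pore that chains pass through, was at 435 RPM in WT and 233 in the mutant, 1.87-fold lower (exact 95% interval 1.81 to 1.92). Its ratio stood at percentile 11.0 of all measured genes. Its small partner SSS1, an essential subunit that clasps the pore, was at 122 and 83.1 RPM, 1.47-fold lower (1.40 to 1.54). SBH1, the nonessential subunit, went the other way with 61.6 and 78.8 RPM, 1.28-fold higher (1.21 to 1.36). The 3 subunits assemble in equal numbers, so their footprint density was compared per kilobase of gene length. In the WT library the density of SBH1 was 0.821 times that of SEC61 and in the mutant 1.96 times, a shift of 2.39-fold (2.24 to 2.55). SSS1 stood at 1.67 times the SEC61 density in WT and 2.12 times in the mutant. SBH1 and SSS1 are the shortest of the 37 genes, at 249 and 243 bp, and the values of both depend on gene length. After removing the trend of the ratio on gene length over all genes, an alternative added after seeing the data, the log2 ratio of SBH1 went from 0.35 to -0.020 and that of SSS1 from -0.55 to -0.93, while that of SEC61 was -0.87.

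The Sec63 complex, which drives translocation after translation, was divided among its 4 subunits. SEC72, a peripheral subunit on the cytosolic side, had the highest ratio of the 37 genes, at 115 RPM in WT and 218 in the mutant, 1.90-fold higher (1.83 to 1.98) and at percentile 92.8 of all genes. Its direct partner SEC66 was at 88.5 and 74.2 RPM, 1.19-fold lower (1.13 to 1.26). SEC63, whose J domain recruits Kar2 to the channel, was at 205 and 240 RPM, 1.17-fold higher (1.14 to 1.21), and SEC62 was at 89.6 and 57.0, 1.57-fold lower (1.48 to 1.67). Members of a single complex therefore lay on both sides of equality. In WT cells the densities of the 4 ran from 103 RPM per kb for SEC63 to 197 for SEC72, a 1.92-fold span. In the mutant library they ran from 69.1 for SEC62 to 375 for SEC72, a 5.43-fold span. The density of SEC72 over SEC66 went from 1.38 to 3.14, a 2.27-fold shift (2.13 to 2.43).

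**Figure D3:**
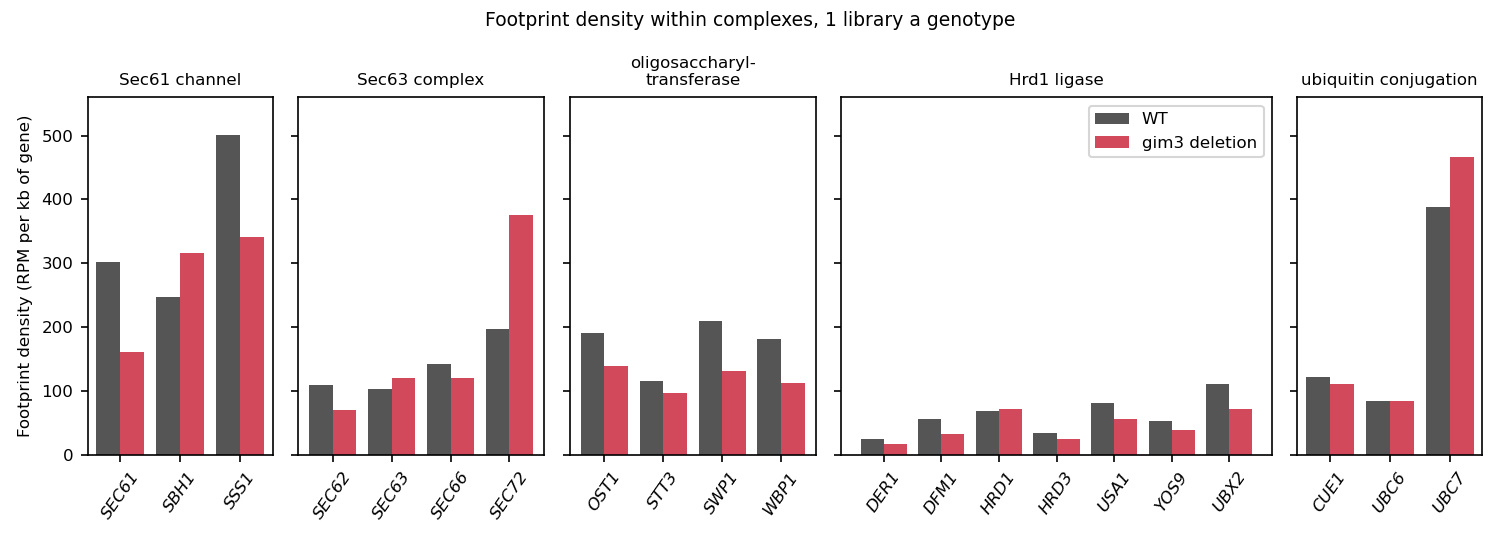
Bars give footprint density in RPM per kb of gene length, from 0, for the genes of 5 groups in the WT library (grey) and the gim3 deletion library (red), 1 library each and so without error bars. The 4 oligosaccharyltransferase bars are all shorter in red, whereas SBH1, SEC72 and SEC63 are taller in red and the other subunits of their complexes are shorter.

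Glycosylation was the one role in which every listed gene was lower, 4 of 4, where 3172 of all 4916 genes were lower too. STT3, the catalytic subunit of oligosaccharyltransferase, was at 248 RPM in WT and 210 in the mutant, 1.18-fold lower (1.15 to 1.22). The other listed subunits hold the enzyme together and present the substrates. OST1 was at 273 and 199 RPM, 1.37-fold lower (1.33 to 1.42). SWP1 was at 180 and 113 RPM, 1.59-fold lower (1.52 to 1.66), and WBP1 was at 234 and 145 RPM, 1.61-fold lower (1.55 to 1.67). All 4 also lay below the median gene, STT3 by 0.037 on the log2 scale and WBP1 by 0.48, and 0 were 1.5-fold below it (13.8% of all genes). The densities of the 4 drew closer together, from a 1.82-fold span in WT to 1.43-fold in the mutant. The 5 subunits outside the 37 genes were mixed, with 3 lower and 2 higher, and their sum was 0.833 times that of WT. Their log2 ratios ran from -0.67 for OST6 to 0.22 for OST2 with a median of -0.042. OST3 and OST6, alternative subunits with oxidoreductase activity, were at 210 and 154 RPM and at 54.4 and 33.7 RPM, so both were lower in the mutant.

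**Figure D4:**
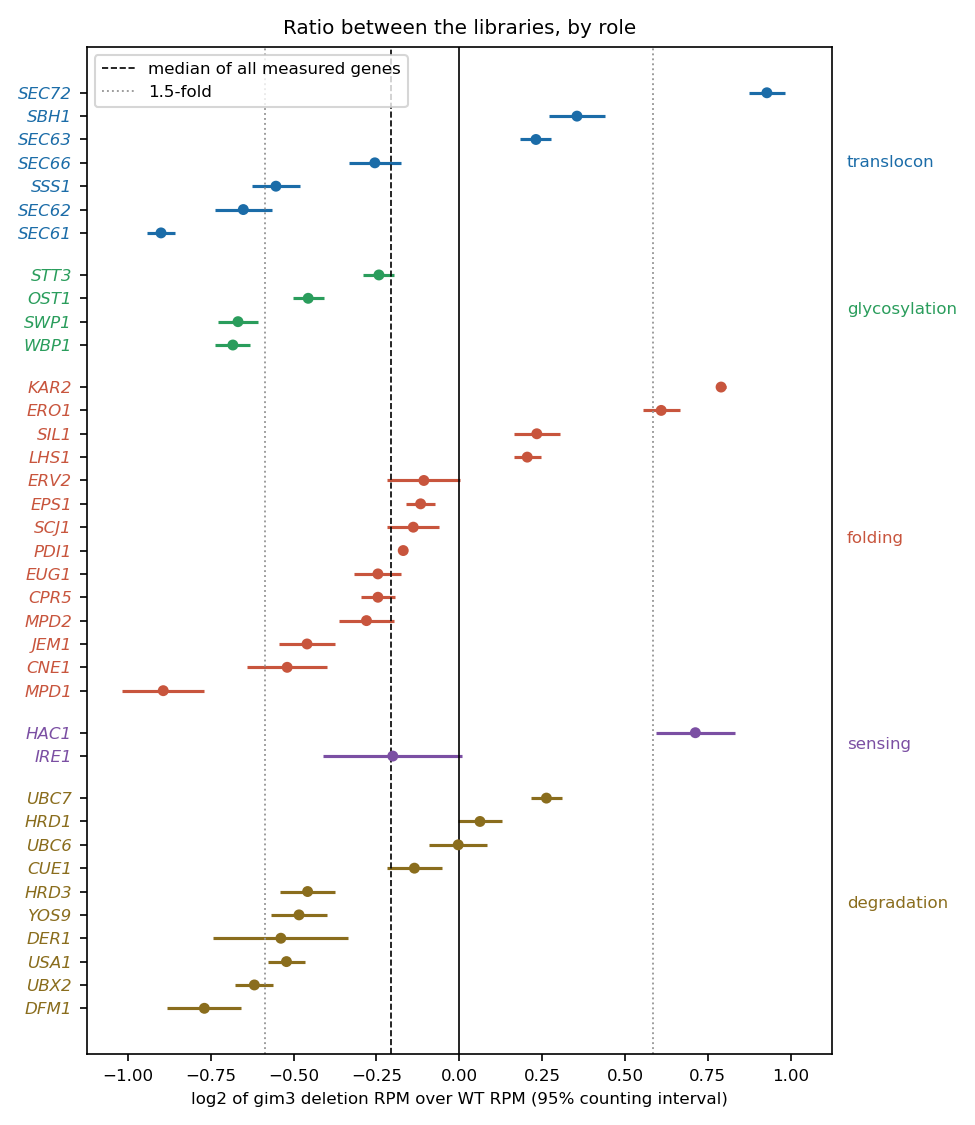
The log2 ratio of gim3 deletion RPM over WT RPM (x axis, no pseudocount) is drawn for each of the 37 genes with its exact 95% counting interval as a line, grouped and coloured by role. The dashed line is the median of all measured genes and the dotted lines mark 1.5-fold in either direction. SEC72, KAR2, ERO1 and HAC1 lie past the right dotted line and the 4 glycosylation genes all lie left of 0.

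Among the folding genes the 5 genes of the Hsp70 system summed to 1.59 times their WT level in the mutant, and KAR2 made most of it. KAR2, the Hsp70 that pulls chains in, keeps them soluble and restrains Ire1, was at 2041 RPM in WT and 3530 in the mutant, 1.73-fold higher (1.71 to 1.75) and at percentile 91.5 of all genes. Its nucleotide exchange factors were higher too but by less. LHS1 was at 263 and 303 RPM, 1.15-fold higher (1.12 to 1.19), and SIL1 was at 90.6 and 107 RPM, 1.18-fold higher (1.12 to 1.24). Of the J proteins that stimulate Kar2, SEC63 was higher, as given above, and the soluble SCJ1 and the membrane-bound JEM1 were lower, although SCJ1 lay 0.068 above the median gene once centred. SCJ1 was at 84.6 and 76.8 RPM, 1.10-fold lower (1.04 to 1.16), and JEM1, which also acts in nuclear fusion, was at 85.9 and 62.4 RPM, 1.38-fold lower (1.30 to 1.46). The density of KAR2 was 22.5 times that of JEM1 in WT and 53.5 times in the mutant. The exchange factor SIL1 had 0.072 of the KAR2 density in WT and 0.049 in the mutant, a 1.47-fold lower share (1.40 to 1.55).

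The disulfide genes centred on PDI1, the main protein disulfide isomerase with the highest footprint density of the 37 genes. PDI1 was at 5107 RPM in WT and 4542 in the mutant, 1.12-fold lower (1.12 to 1.13), and its density was at percentile 99.5 of all genes in WT. It lay near the middle of all genes, 0.036 above the median gene on the log2 scale. KAR2 had 0.306 of the PDI1 density in WT and 0.595 in the mutant, a 1.94-fold shift (1.92 to 1.97). ERO1, the oxidase that supplies Pdi1 with disulfides, was at 128 and 195 RPM, 1.53-fold higher (1.47 to 1.59). ERO1 was thus higher while the isomerase it serves was near the median gene, and its share of the PDI1 density shifted 1.72-fold (1.65 to 1.78). ERV2, another sulfhydryl oxidase of the compartment, was at 42.5 and 39.5 RPM, and the interval of its fold, 0.860 to 1.00, reached equality. ERV2 overlaps another annotated gene, IRC16, so part of its reads may belong to that gene.

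The 4 relatives of PDI1 were each lower in the deposited scaling, MPD1 by the most, and EPS1 turned to higher once centred. MPD1 was at 48.0 RPM in WT and 25.8 in the mutant, 1.86-fold lower (1.71 to 2.03) and at percentile 11.6 of all genes. EUG1 was at 109 and 92.3 RPM, 1.19-fold lower (1.13 to 1.25). MPD2 was at 82.1 and 67.6 RPM, 1.21-fold lower (1.15 to 1.29), and EPS1, a membrane-bound relative, was at 273 and 252 RPM, 1.08-fold lower (1.05 to 1.12). The other 3 lay below the median gene too. The remaining folding genes were lower as well. CPR5, a cyclophilin that speeds prolyl isomerisation, was at 204 and 172 RPM, 1.19-fold lower (1.14 to 1.23), and CNE1, the yeast relative of calnexin, was at 42.4 and 29.6 RPM, 1.43-fold lower (1.32 to 1.56).

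The sensor and its effector had few footprints in either library. IRE1 was at 12.5 RPM in WT and 10.9 in the mutant, from 507 and 304 reads, and the interval of its fold, 0.752 to 1.01, included equality. Its density was the lowest of the 37 genes in both libraries. HAC1 was at 26.6 and 43.6 RPM, 1.64-fold higher (1.51 to 1.78) and at percentile 90.2 of all genes. Unspliced HAC1 mRNA carries a translational block, and a value for the whole gene does not separate the spliced from the unspliced form, so splicing was not measured. HAC1 was 1 of the 4 members at least 1.5-fold higher, with SEC72, KAR2 and ERO1, beside 12.0% of all genes. Of the 14 folding genes, 4 were higher in the mutant and 10 lower, beside 1744 and 3172 of all 4916 genes. Relative to the median gene 8 were higher and 6 lower, beside 2458 and 2458.

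Of the 7 genes grouped with the Hrd1 ligase 6 were lower, where 3172 of all 4916 genes were, and the ligase itself was not. At 1.5-fold 2 of the 7 were lower (22.6% of all genes), or 0 when centred (13.8%). HRD1, the ubiquitin ligase of the membrane, was at 112 RPM in WT and 117 in the mutant, and the interval of its fold, 0.998 to 1.09, included equality. HRD3, which stabilises Hrd1 and receives substrates, was at 84.9 and 61.8 RPM, 1.37-fold lower (1.30 to 1.46). The density of HRD1 over HRD3 went from 2.00 in WT to 2.86 in the mutant. USA1, the scaffold of the complex, was at 203 and 141 RPM, 1.44-fold lower (1.38 to 1.49). YOS9, the lectin that reads trimmed glycans, was at 86.1 and 61.6 RPM, 1.40-fold lower (1.32 to 1.48). These 3 partners of Hrd1 thus had similar ratios. The rhomboid-like protein gene DER1 was at 15.5 and 10.7 RPM, 1.45-fold lower (1.26 to 1.67), and its relative DFM1 was at 56.8 and 33.3 RPM, 1.71-fold lower (1.58 to 1.84), the lowest ratio in this role. UBX2, which brings the Cdc48 segregase to the ligase, was at 194 and 127 RPM, 1.54-fold lower (1.48 to 1.60). Summed over these 7 genes, DFM1 included, footprints in the mutant were 0.734 times those of WT.

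The ubiquitin-conjugating genes did not follow the ligase genes. UBC7, the main conjugating enzyme of this pathway, was at 193 RPM in WT and 232 in the mutant, 1.20-fold higher (1.16 to 1.24). After the length trend was removed, the log2 ratio of this 498 bp gene went from 0.26 to 0.13. CUE1, which anchors Ubc7 in the membrane, was at 74.1 and 67.4 RPM, 1.10-fold lower (1.04 to 1.16). UBC6, a membrane-bound conjugating enzyme that works with Doa10, was at 63.4 and 63.3 RPM, a fold of 0.998 (0.939 to 1.06). The density of UBC7 was 3.21 times that of its anchor in WT and 4.23 times in the mutant. All 3 lay above the median gene.

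The wider pathway was read from 61 further genes in 9 lists, and its median log2 ratio, -0.23, was close to that of the 37. Its summed footprints were 0.850 times those of WT, against 1.03 times for the 37. Of the 61, 48 genes lay within 1.5-fold, beside 65.5% of all genes. Another 13 were at least 1.5-fold lower and 0 at least 1.5-fold higher, beside 22.6% and 12.0% of all genes. Centred on the median gene, 6 were lower and 2 higher, beside 13.8% and 17.0%. At 2-fold, 2 were lower and 0 higher, beside 8.5% and 6.35% of all genes. When centred, 1 was lower and 0 higher, beside 5.21% and 8.3%. SSH1, the pore of a further translocon and a paralog of SEC61, had the lowest ratio. It was at 24.0 RPM in WT and 5.13 in the mutant, 4.68-fold lower (3.92 to 5.62). SBH2, its small subunit and the paralog of SBH1, was at 106 and 112 RPM, 1.06-fold higher (1.01 to 1.11). In the deposited scaling both pores were thus lower, as was SSS1, while SBH1 and SBH2 were not. SBH1 was near equality after the length trend was removed. SBH2 is nearly as short, at 267 bp, and its value without that trend was not examined. The density of SEC61 over SSH1 went from 18.5 to 46.3. SRP72, a subunit of the signal recognition particle that targets ribosomes to the membrane, was at 83.0 and 36.2 RPM, 2.30-fold lower (2.14 to 2.46). Its fellow subunit SEC65 was 1.35-fold higher (1.29 to 1.41) and the gene of the alpha subunit of the receptor 1.29-fold higher (1.22 to 1.37). Of the enzymes that build the N-glycan, ALG9, a mannosyltransferase, had the highest ratio of these lists at 1.48-fold higher (1.41 to 1.55), and ALG8, a glucosyltransferase, was 1.97-fold lower (1.82 to 2.13). ALG14, which acts early in the same pathway, was 1.87-fold lower (1.70 to 2.05), and ASI3, of a ligase of the inner nuclear membrane, was 1.88-fold lower (1.71 to 2.06).

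Beside 3 neighbouring groups of genes, the 37 lay between the proteasome and the vesicle coats. The 33 proteasome genes, which finish the degradation of ejected proteins, had a median log2 ratio of -0.032, from -0.48 for RPN8 to 0.39 for SEM1. In the deposited scaling 0 of them passed 1.5-fold in either direction (12.0% of all genes higher and 22.6% lower). When centred, 1 was higher and 0 lower (17.0% and 13.8%). The 25 cytosolic chaperone genes had a median of 0.018 and a much wider range, from -1.45 for SSB1, which has a near-identical copy and so an uncertain value, to 1.84 for SSA3. At 1.5-fold, 5 of these chaperone genes were higher and 4 lower (12.0% and 22.6% of all genes), or 7 and 4 when centred (17.0% and 13.8%). The 23 genes of the vesicle coats that carry cargo onward from the endoplasmic reticulum had a median of -0.62, with 13 at least 1.5-fold lower and 1 higher (22.6% and 12.0% of all genes), or 7 and 1 when centred (13.8% and 17.0%). Their highest was SEC12, the exchange factor that starts coat assembly, at 88.0 and 240 RPM, and their lowest was ERP2, a cargo receptor, at 60.0 and 27.0 RPM. With 1 library a genotype none of these differences between groups of genes was tested.

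**Figure D5:**
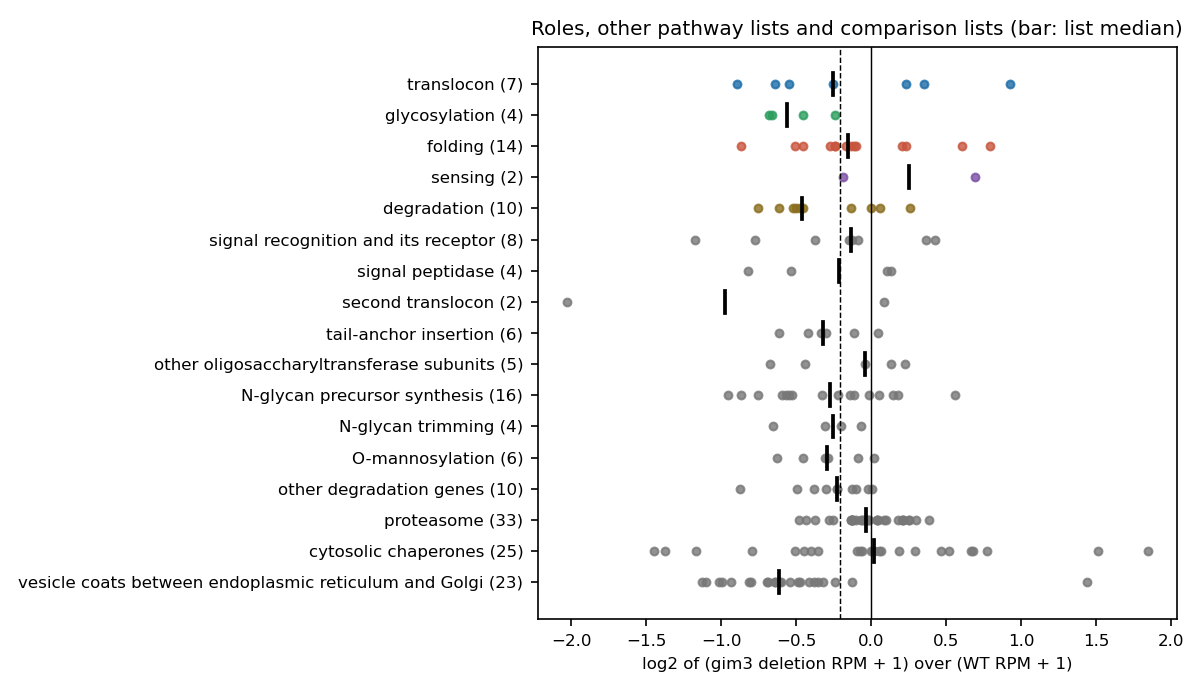
Each point is a gene placed by its log2 ratio of gim3 deletion over WT with 1 RPM added (x axis), in rows for the 5 roles of the 37 genes (coloured), the 9 further pathway lists and the 3 neighbouring groups (grey), with the number of genes in brackets. Black bars are list medians, the solid line is 0 and the dashed line is the median of all measured genes. The vesicle coat genes lie mostly left of the dashed line and the proteasome genes mostly right of it.

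The order of levels was largely kept between the libraries. Across the 37 genes, which are not independent replicates and share the 2 libraries, log2 levels had a Pearson correlation of 0.96 and levels a Spearman correlation of 0.93. Over the 4884 measured genes with a length these were 0.888 and 0.889. Densities spanned 869-fold in WT, from 3.75 RPM per kb for IRE1 to 3255 for PDI1, and 888-fold in the mutant. PDI1 had the highest density in both libraries and KAR2 the next. By rank SSS1 went from 3 to 5, UBC7 from 4 to 3 and SEC72 from 9 to 4. The median density of the 37 was 99.5 RPM per kb in WT, against 53.0 for the 4884 measured genes with a length. Across the 37, the log2 ratio had a Spearman correlation of -0.010 with gene length and of 0.15 with level. Over the 4884 genes these were -0.069 and 0.13.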

How the data were processed

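Footprints were measured in 1 WT and 1 gim3 deletion library, and the authors deposited RPM. The unit was read from the numbers: each column sums to 1000000, and 100% of the entries of both columns came out as whole reads (tolerance 0.001) when divided by the smallest, 0.0247 RPM in WT and 0.0359 in gim3 deletion. The submitters' processing notes name Bowtie2, STAR and SAMtools. What each did, the genome build, the annotation and the rule for reads that match several places are not stated there. Lines without a gene name (86 of 6678) held 0.121% and 0.124% of reads and were left out of comparisons.

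Log2 ratios were taken after adding 1 RPM, over genes averaging 10 RPM or more, and counted by size at 2-fold and 1.5-fold. Folds are ratios of RPM with exact Clopper-Pearson 95% intervals, based on how a gene's reads divide between the libraries. Intervals of shifts between genes are Wald intervals on the log scale. All cover counting error only. A negative binomial count test needs replicates and was not run. The depths, 40433177 and 27864644 reads, set this precision, and the interval of the median member spanned 1.10-fold from end to end. Gene lengths, synonyms (3 list names) and gene order come from the R64 RefSeq table, which matched 37 of 37 members and 5910 of 6592 names. Since SK1 differs from that reference and HAC1 includes its intron, densities are approximate. Overlaps with unmatched names were not checked. The members, roles, lists and rules were chosen with earlier results of these data known, and the pairs of genes whose densities are compared were chosen after their values were seen. All 37 members are named. Of the other pathway lists, the genes past 2-fold and the 3 highest and 3 lowest of the rest are named, and of each neighbouring group the highest and lowest. Further subunits and paralogs were named after their values were seen. Alternatives covered the pseudocount (0.1 and 5 RPM), the filter (none and 50 RPM), centring on the median gene or on a trimmed mean (30% of ratios and 5% of levels left out at each end), totals without middle meiotic markers and, added later, removal of a lowess trend on length (fraction 0.5). The steps were tested on simulated data. Analyses ran in Python 3.11.15 with pandas 2.3.3, numpy 2.4.6, SciPy 1.17.1 (intervals), statsmodels 0.14.6 (lowess) and matplotlib 3.10.9 (figures).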

Additional observations from a re-analysis of the deposited data

How the results depend on the processing

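Scaling moved the most counts and medians, and gene length moved the shortest genes most. Centring on the median gene or on the trimmed mean took the members at least 1.5-fold lower from 7 to 2 in both settings, those at least 2-fold higher from 0 to 1, and the other pathway genes at least 2-fold lower from 2 to 1. The median log2 ratio went from -0.24 to -0.038 and -0.046 for all members, from -0.25 to -0.047 and -0.054 for the translocon, from -0.56 to -0.35 and -0.36 for glycosylation, from -0.15 to 0.052 and 0.045 for folding, and from -0.46 to -0.26 and -0.27 for degradation. Centring changed the sign of 7 of 37 members, none of them past 1.5-fold. A filter at a mean of 50 RPM kept 30 members, kept 1 other pathway gene at least 2-fold lower, since SSH1 is below it, gave degradation -0.29 and left 5 members at least 1.5-fold lower. The other pseudocounts and no filter changed no member's sign. Totals without the middle meiotic markers changed the sign of 1 member and the length trend that of 2. The length trend moved SBH1 from 0.35 to -0.020 and SSS1 from -0.55 to -0.93 and gave 8 members at least 1.5-fold lower, and the largest move of a member was 0.38, against 0.20 under centring. The members at least 1.5-fold higher numbered 4 under every alternative but the 50 RPM filter, which gave 3 because HAC1 is below it. No paired analysis was possible because each genotype has 1 library. Depth limits IRE1 and DER1 most, with 811 and 923 reads in all.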

Other observations

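The chromosomal neighbours of the 37 genes differed about as often as those of other genes. In the gene order of the R64 RefSeq table, 4 of the 37 (10.8%) lay next to a gene at least 2-fold higher in the gim3 deletion library, beside 9.91% of the 4884 measured genes found in that table, and 5 (13.5%) lay next to a gene at least 2-fold lower, beside 12.6%. SEC63 is next to OSW1, a spore wall gene with a log2 ratio of 3.91, and its own was 0.23. DER1 is next to MIN7, with 2.33, and its own was -0.50. None of the 37 is on the chromosome that carries GIM3.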
